A study of Mus musculus with 6 samples.

Results

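The matrix metalloproteinases, the ADAM and ADAMTS proteases and their tissue inhibitors were followed in mouse neural progenitor cells grown with PDGFA or with EGF and FGF. The members were taken by gene symbol alone: every gene named Mmp, Adam or Timp followed by a digit, every Adamts and Adamts-like gene, and Papln, which codes for papilin. This rule found 56 genes among the 22057 genes of the expression table. It used no measured value, although the family was picked with earlier results of these data in view. The PDGFA group was p53-null neural progenitor cells in stem cell medium with platelet-derived growth factor A, and the EF group was p53-null cells in the same kind of medium with the epidermal and fibroblast growth factors EGF and FGF and heparin. Both groups were cultured for 4 days, and each held 3 libraries of polyadenylated RNA, 1 from each of mouse 62, mouse 68 and mouse 69. Loss of p53 was shared by all 6 libraries, so no result here bears on p53. The media differed in PDGFA and in EGF, FGF and heparin at once, so the parts played by adding one factor and by withdrawing the others cannot be told apart.

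Proteins of these families cut the matrix around cells and the outer parts of membrane proteins. Matrix metalloproteinases, or MMPs, are secreted or held on the cell surface and cleave collagens, other matrix proteins and one another's precursors. ADAMs are membrane proteins, and those with an active protease release growth factors, Notch ligands and adhesion molecules from the cell surface. ADAMTS enzymes are secreted, and several cleave aggrecan, brevican, neurocan and versican, the chondroitin sulfate proteoglycans that make up much of the brain's matrix. TIMPs are the tissue inhibitors that block MMPs and, in part, ADAMs and ADAMTS enzymes.

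The libraries held 34812800 to 39601349 recovered reads in PDGFA and 27270246 to 30151469 in EF, and the values below are the authors' normalized counts per gene. Trp53, the gene of p53, kept 988.3 to 1122 normalized counts in PDGFA and 1672 to 2383 in EF. Which exons the null allele lacks is not given in the sources used here, so these counts do not check the genotype. Libraries of one group lay closer together in PDGFA, where the median gene had an SD of 0.17 on the log2 scale, than in EF, where it was 0.38. Pdgfra, the receptor of PDGFA and a marker of oligodendrocyte precursors, was uneven within EF. It had 14133 normalized counts in the EF library of mouse 68 and 860.9 and 533.1 in those of mouse 62 and mouse 69. Markers of cell state moved with the media over the whole table. All 10 markers of maturing oligodendrocytes rose in PDGFA, and their summed level was 351899 to 425891 normalized counts in PDGFA and 2793 to 5245 in EF. Among 10 astrocyte markers 7 rose and none fell, with sums of 187260.0 to 300327 in PDGFA and 56240.2 to 98224 in EF. All 10 markers of dividing cells fell, with sums of 1899 to 2183 in PDGFA and 45883 to 99557 in EF, and of 10 neural progenitor markers 4 rose and 5 fell, with sums of 61462 to 69889 in PDGFA and 110714 to 216575 in EF. Nes, the filament protein nestin, fell most of the progenitor markers, with 1600.2 to 3419.6 normalized counts in PDGFA and 21108 to 48051 in EF. The 4 progenitor markers that rose were Hes5, Prom1, Msi1 and Sox2, at log2 fold changes of 1.59, 1.31, 1.18 and 0.68. Of 10 oligodendrocyte precursor markers 4 rose and 3 fell, with sums of 188524 to 273087 in PDGFA and 162904 to 316950.0 in EF. Of 6 endothelial markers tested 2 rose and 2 fell, and the list summed to 719.7 to 1016 in PDGFA and 236.5 to 629.4 in EF. Only 3 genes of the microglial list were in the expression table. They summed to 94.5 to 165.5 in PDGFA and 139.6 to 189.2 in EF, mostly from Cd68. Of 2 microglial markers tested none rose and P2ry12 fell, with 2.86 to 6.79 in PDGFA and 11.5 to 44.7 in EF (limma adjusted p = 0.0484, 0.0279 to 0.229 over the alternatives), and Csf1r, under the count minimum, had 1.70 to 3.58 in PDGFA and 0 to 1.13 in EF. Of 7 neuronal markers tested 2 rose and none fell, with sums of 29808 to 39829 in PDGFA and 25556 to 30922 in EF, mostly from Map2. Of 8 mural markers 2 rose and 3 fell, with sums of 9695 to 11797 in PDGFA and 9841 to 40515 in EF. These sums came mostly from Notch3 and from Cspg4, which is also on the precursor list. Of 3 fibroblast markers tested, Col1a1 fell, with 14.3 to 24.6 in PDGFA and 44.7 to 92.3 in EF, and the summed list was 8132.5 to 17201 in PDGFA and 741.5 to 14340.4 in EF, mostly from Pdgfra. The part of these markers' cells in the changes below was not tested, and in bulk RNA fewer cells of a type and less RNA per cell cannot be told apart.

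The start-site sequences of TIMP genes that moved in opposite directions are shown here with that of Papln, the member with the largest fall, because their CpG content differs. The table of promoters, from RefSeq on build GRCm38.p6, matched 36 start sites of 33 members, and CpG dinucleotides were counted in the 250 bases before each start. The median was 16 over the member start sites, with quartiles of 7 and 22.25, and 6 over all 32851 start sites of the table, with quartiles of 2 and 16. Timp3, which rose in PDGFA, had 18 CpGs in its window, and Timp2, which also rose, had 21. By the GENCODE annotation, 153 of the 200 bases from 250 to 51 before this Timp2 start lie in a Timp2 exon. The Timp2 window is thus not wholly before the gene as annotated there, and its sequence is not shown. Timp4 and Timp1, which fell, had 2 and 6, and Papln had 7. Each line gives 200 bases in the direction of the gene, from 250 to 51 bases before the start, with CpG in capitals. The positions are chr10:86300162-86300361 on the plus strand for Timp3, chr6:115252256-115252455 on the minus strand for Timp4, chrX:20869916-20870115 on the plus strand for Timp1 and chr12:83763384-83763583 on the plus strand for Papln.
Timp3: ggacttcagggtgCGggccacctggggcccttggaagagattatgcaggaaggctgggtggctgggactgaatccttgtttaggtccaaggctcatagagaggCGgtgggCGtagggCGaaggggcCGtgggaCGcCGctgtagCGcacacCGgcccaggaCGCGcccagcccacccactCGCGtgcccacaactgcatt
Timp4: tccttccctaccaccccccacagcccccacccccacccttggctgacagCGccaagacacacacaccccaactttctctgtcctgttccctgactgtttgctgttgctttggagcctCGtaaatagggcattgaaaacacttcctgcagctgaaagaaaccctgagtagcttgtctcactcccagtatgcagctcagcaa
Timp1: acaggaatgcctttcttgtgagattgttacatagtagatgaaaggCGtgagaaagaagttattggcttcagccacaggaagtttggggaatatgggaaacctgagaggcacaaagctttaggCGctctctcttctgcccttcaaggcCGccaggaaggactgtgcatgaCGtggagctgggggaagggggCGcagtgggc
Papln: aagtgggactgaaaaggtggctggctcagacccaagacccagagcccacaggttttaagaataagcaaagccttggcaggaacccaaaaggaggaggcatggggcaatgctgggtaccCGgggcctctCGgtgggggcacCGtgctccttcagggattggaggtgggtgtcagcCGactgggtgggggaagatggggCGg
CpG number did not sort the members by direction in general. Start sites of members that rose had a median of 17.5 CpGs (range 14 to 27, 6 start sites), those of members that fell had 14 (range 2 to 39, 15 start sites of 13 genes), and those of members that were not called had 14 (range 4 to 33, 12 start sites of 11 genes). These ranges overlap, and no test was made on them.

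Of the 56 members, 50 had a mean of at least 10 normalized counts over the 6 libraries and were tested. A member was called where limma's adjusted p, corrected by Benjamini-Hochberg over all 17068 genes tested, was under 0.05. In PDGFA 9 members rose, which is 18.0% of those tested, against a background of 21.8% of all genes tested. In the same comparison 20 members fell, which is 40.0%, against a background of 18.0%. The other 21 tested members were not called. The median log2 fold change was -0.22 over the tested members and -0.01 over all genes tested. All 29 called members moved the same way in the 3 mice and had groups that did not overlap, and 27 of them differed by at least 2-fold. The shares of all called genes that did so were not counted. Of the 50 tested members, 10 had groups that did not overlap with the higher values in PDGFA, and 21 with the lower. The backgrounds were 29.2% and 26.3% of all genes tested. Without both libraries of mouse 68, the number that fell was 12 and the number that rose was 10. In that setting 1335 of the 17068 genes fell and 1945 rose, against 3076 and 3720 with all libraries. The normalized counts of all members summed to 65886 to 71566 in PDGFA and 107146 to 170237 in EF. Much of the EF sum came from Mmp15 (26459 to 63318), Adam19 (12246 to 22202) and Adam12 (12432 to 16306). In PDGFA these genes had 3463 to 4599, 305.5 to 370.5 and 453.6 to 560.0. The sum therefore does not describe most members, and other members with high counts, such as Adamts4 and Timp3, were higher in PDGFA.

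**Figure D1:**
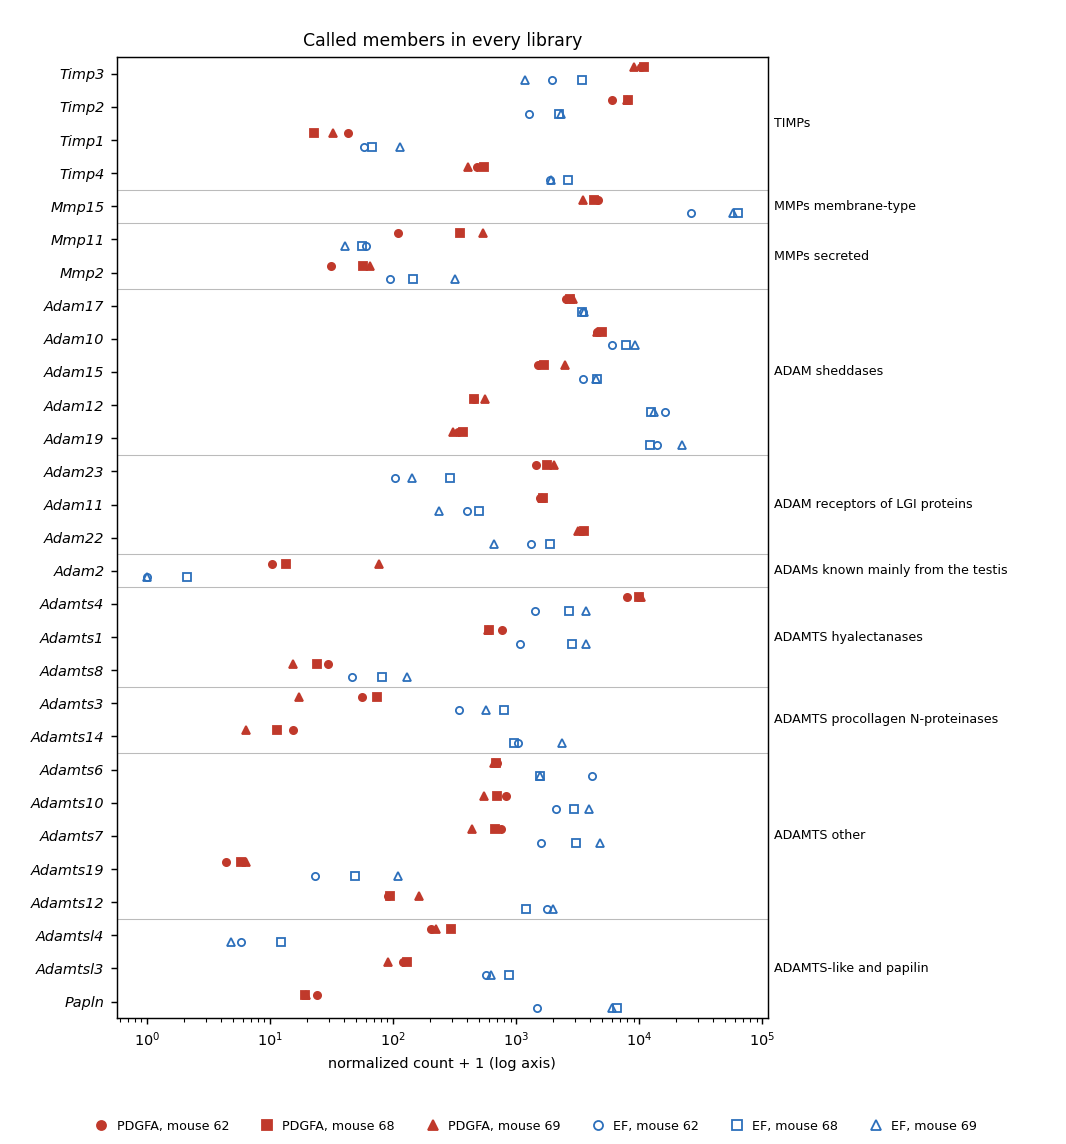
Normalized counts plus 1 (log axis) of the 29 called members in each library, with PDGFA as filled red marks above EF as open blue marks and 1 shape per mouse, ordered by role. The groups are apart in every row, from Papln at 18.1 to 22.9 in PDGFA and 1468 to 6643 in EF to Adam17 at 2521 to 2897 in PDGFA and 3422 to 3581 in EF.

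The 4 TIMPs were all called, 2 in each direction, where 21.8% of all genes tested rose and 18.0% fell. Timp3, an inhibitor that binds to the matrix and also blocks ADAM17 and aggrecan-cutting ADAMTS enzymes, had 10322, 10971 and 9118 normalized counts in the PDGFA libraries of mouse 62, mouse 68 and mouse 69, and 1960, 3417 and 1175 in the EF libraries of the same mice. Timp2, which blocks MMPs and also takes part in activating the MMP2 precursor, had 5960, 8133 and 7953 in PDGFA and 1264, 2239 and 2313 in EF, in the same order of mice as in all lists of values that follow. For both genes every PDGFA library was above every EF library. Timp3 averaged 10137 ± 940.4 in PDGFA and 2184 ± 1138 in EF (SD, n = 3 each), a log2 fold change of 2.34 ± 0.35 (SE; limma adjusted p = 0.00171). Timp2 averaged 7349 ± 1206 in PDGFA and 1939 ± 585.4 in EF, a log2 fold change of 1.96 ± 0.26 (limma adjusted p = 0.000946). Timp3 lies at chr10:86300372-86349506 (GRCm38), inside the gene Syn3, with which it shares 21.3% of its exon bases, and the library kit was not stated to keep the strand. Syn3 had 214.1 to 220.6 normalized counts in PDGFA and 95.9 to 174.5 in EF, far under the Timp3 counts of the same libraries.

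Timp4 and Timp1 went the other way. Timp4, an inhibitor with a narrow tissue range that includes the brain, had 477.8, 551.9 and 404.1 normalized counts in PDGFA and 1892, 2621 and 1904 in EF. The 3 PDGFA libraries were all below the EF libraries, at 477.9 ± 73.9 in PDGFA and 2139 ± 417.5 in EF (SD, n = 3 each), and the gene fell by 2.15 on the log2 scale (SE 0.19, limma adjusted p = 0.000169). Timp1, an inhibitor known to respond to growth factors and injury, had 42.4, 22.0 and 31.4 in PDGFA and 57.5, 66.4 and 113.8 in EF. Its groups did not overlap, but the mouse 62 libraries were only 42.4 and 57.5 counts. The log2 fold change of Timp1 was -1.27 ± 0.41 (limma adjusted p = 0.0414). That call ended with the mouse as a block (adjusted p = 0.0662). It also ended when any library but EF mouse 62 was left out, at adjusted p = 0.058, 0.158 and 0.104 without the PDGFA libraries of mouse 62, 68 and 69 and 0.0715 and 0.092 without the EF libraries of mouse 68 and 69, and over all alternatives the adjusted p ran between 0.0131 and 0.315.

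Per kb of exon the make-up of the inhibitor family differed between the media. Timp4 made up 2.77%, 2.64% and 2.1% of the family's summed normalized counts per kb in PDGFA and 33.8%, 29.4% and 27.2% in EF. Timp2 and Timp3 together held nearly all of the PDGFA sum: Timp2 made up 52.3% to 62.5% in PDGFA and 34.1% to 49.9% in EF, and Timp3 made up 34.3% to 43.3% in PDGFA and 12.1% to 27.7% in EF. Summed without regard to length, the 4 TIMPs had 16802 to 19678 normalized counts in PDGFA and 5174 to 8344 in EF.

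Among the 5 membrane-type MMPs tested, only Mmp15 was called, where 39.8% of all genes tested were called in either direction. Mmp15, a surface protease also known as MT2-MMP, had 4599, 4295 and 3463 normalized counts in PDGFA and 26459, 63318 and 57240 in EF. The PDGFA libraries were close together and all below the EF libraries, at 4119 ± 588.3 in PDGFA and 49006 ± 19761 in EF (SD, n = 3 each). Mmp15 was 11.2-fold lower in PDGFA (log2 fold change -3.48 ± 0.33, limma adjusted p = 0.000208). Its share of the family, per kb of exon, was 50.4%, 44.2% and 33.6% in PDGFA and 88.7%, 92.2% and 85.8% in EF.

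Mmp14, or MT1-MMP, which activates the MMP2 precursor on the cell surface, had 3420, 4311 and 6341 normalized counts in PDGFA and 2925, 3907 and 9166 in EF. Those groups overlapped, and in both media mouse 62 had the lowest and mouse 69 the highest value. The log2 fold change of Mmp14 was -0.05, with a 95% interval of -1.04 to 0.93 (limma adjusted p = 0.93), and it turned positive without the PDGFA library of mouse 62 (0.15) or the EF library of mouse 69 (0.43).

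Mmp24, or MT5-MMP, which is known from neurons and acts on cadherins, had 269.0, 287.4 and 193.5 normalized counts in PDGFA and 54.6, 186.9 and 24.3 in EF, and only the EF library of mouse 68 came near the PDGFA range. Its log2 fold change was 1.95 ± 0.67 (limma adjusted p = 0.0516). It passed with a pseudocount of 5 (adjusted p = 0.049), with no filter on low values (0.0494) and with DESeq2 (0.0481). Blocking on the mouse brought it under the threshold (adjusted p = 0.0204), as did leaving out the EF library of mouse 68 (log2 fold change 2.72, adjusted p = 0.00431), and over the alternatives its adjusted p ran between 0.00146 and 0.141. Mmp24 shares 13.6% of its exon bases with BC029722, which rose in PDGFA as well (log2 fold change 1.14, limma adjusted p = 0.00847), so reads in the shared bases cannot be assigned to one of them. Mmp16, or MT3-MMP, had 892.4 to 1232 in PDGFA and 333.7 to 1154 in EF, with a log2 fold change of 0.88 that missed the test (adjusted p = 0.139) and passed it without the EF library of mouse 68 (1.39, adjusted p = 0.00571, with a range of 0.00571 to 0.332 over the alternatives). Mmp17, or MT4-MMP, had 380.8 to 604.3 in PDGFA and 430.9 to 1102 in EF. Its log2 fold change was -0.72 (adjusted p = 0.175), and without the EF library of mouse 62 it was -1.17 and passed (adjusted p = 0.00642, range 0.00642 to 0.522). Mmp25 was under the count minimum, with 0, 0 and 1.79 in PDGFA and 10.5, 10.1 and 10.2 in EF.

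**Figure D2:**
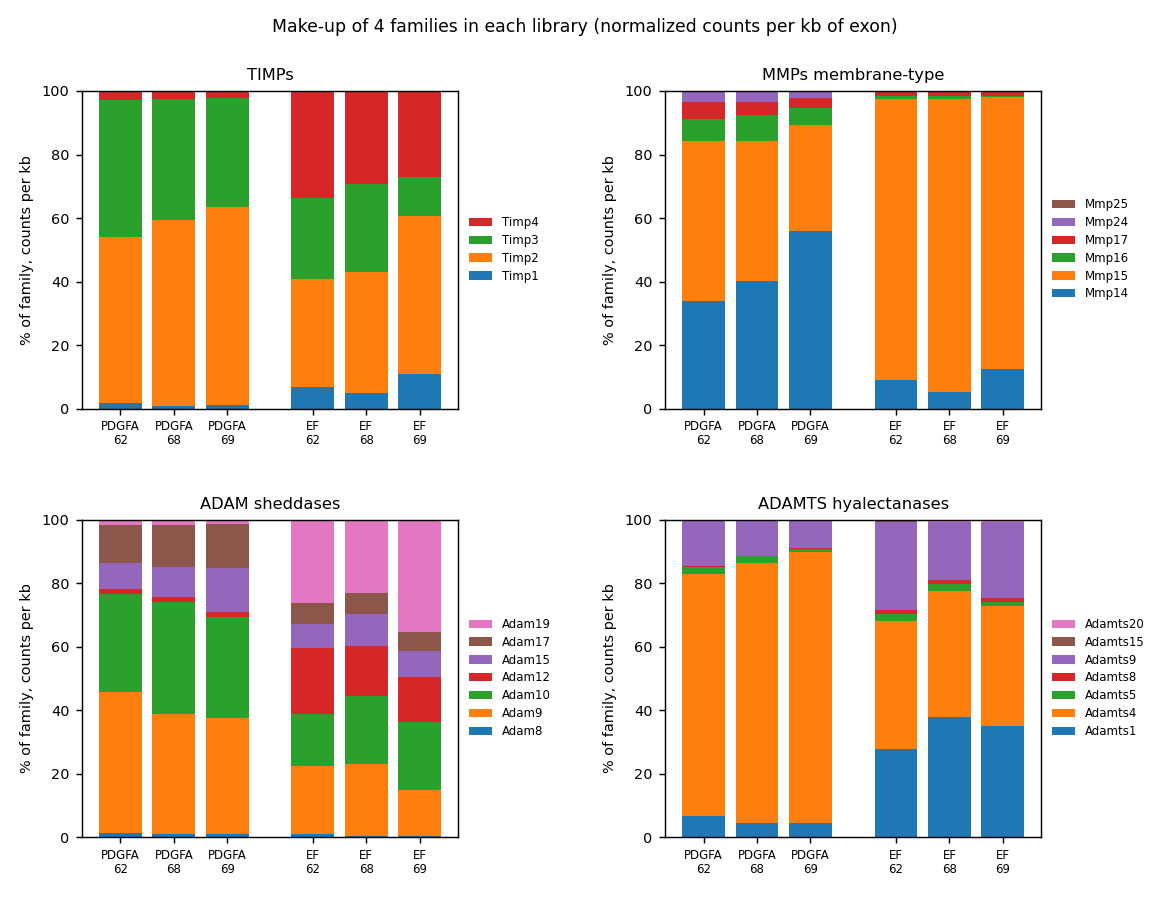
Share (%) of each gene in the summed normalized counts per kb of exon of 4 families, in 1 bar per library, with the PDGFA libraries left of the EF libraries. Timp4 takes 2.1% to 2.77% of the TIMPs in PDGFA and 27.2% to 33.8% in EF, and Adam19 takes 1.47% to 1.8% of the ADAM sheddases in PDGFA and 23.2% to 35.6% in EF.

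Of the 5 secreted MMPs tested 1 rose and 1 fell, where 21.8% of all genes tested rose and 18.0% fell. All 6 in the table summed to 247.8 to 760.7 normalized counts in PDGFA and 299.5 to 407.8 in EF. Mmp11, or stromelysin-3, which furin activates inside the cell, rose: it had 109.5, 345.7 and 534.0 in PDGFA and 59.4, 55.2 and 39.6 in EF. The PDGFA libraries spread widely and all lay above EF, at 329.7 ± 212.7 in PDGFA and 51.4 ± 10.4 in EF (SD, n = 3 each). Its log2 fold change was 2.41 ± 0.56 (limma adjusted p = 0.0126). Without the PDGFA library of mouse 62 it was 3.06, and without the PDGFA library of mouse 68 it was 2.23 and no longer called (adjusted p = 0.0526, with a range of 7.79e-06 to 0.1 over the alternatives). Mmp11 shares 5.6% of its exon bases with Chchd10 on the other strand. Chchd10 had 56.9, 195.7 and 571.6 in PDGFA and 56.5, 199.3 and 51.1 in EF. Reads in the shared bases cannot be assigned to one of these genes.

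Mmp2, the gelatinase that MMP14 and TIMP2 act on, fell. It had 30.6, 56.3 and 64.5 normalized counts in PDGFA and 92.9, 145.2 and 318.3 in EF, and all PDGFA libraries were below the EF libraries. The means were 50.5 ± 17.7 in PDGFA and 185.5 ± 118.0 in EF (SD, n = 3 each). Its log2 fold change was -1.74 ± 0.51 (limma adjusted p = 0.0303). The call ended when any library but EF mouse 62 was left out: the adjusted p was 0.101, 0.0706 and 0.0551 without the PDGFA libraries of mouse 62, 68 and 69, and 0.0628 and 0.0619 without the EF libraries of mouse 68 and 69, within a range of 0.00157 to 0.128 over the alternatives. Mmp9, the other gelatinase, was under the count minimum, with 1.70, 0 and 1.79 in PDGFA and 8.62, 6.76 and 8.95 in EF. Mmp19, Mmp23 and Mmp28 were not called, at log2 fold changes of 0.58, 0.77 and 0.32 (limma adjusted p = 0.478, 0.366 and 0.707). Of these, Mmp23 passed the test without the EF library of mouse 62 (1.47, adjusted p = 0.0291, range 0.0291 to 0.777).

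Of the ADAMs with an active protease, 7 were listed as sheddases, and those known mainly from the testis were listed apart. Among the 7 sheddases 5 fell and none rose, where 18.0% of all genes tested fell. The number that fell was 3 when the PDGFA library of mouse 62, 68 or 69 or the EF library of mouse 68 was left out, and 2 without both libraries of mouse 68. Their summed level was 14866 to 15334 normalized counts in PDGFA and 47485 to 57973 in EF. Adam19, or meltrin beta, known for releasing neuregulin, had 336.1, 370.5 and 305.5 in PDGFA and 13869, 12246 and 22202 in EF. Adam12, or meltrin alpha, which can release EGF receptor ligands, had 456.6, 453.6 and 560.0 in PDGFA and 16306, 12432 and 13046 in EF. Every PDGFA library of both genes was far below every EF library. Adam19 averaged 337.4 ± 32.5 in PDGFA and 16106 ± 5342 in EF (SD, n = 3 each), 46.1-fold lower in PDGFA (log2 fold change -5.53 ± 0.23, limma adjusted p = 1.12e-05). Adam12 averaged 490.0 ± 60.6 in PDGFA and 13928 ± 2082 in EF, 28.3-fold lower (log2 fold change -4.82 ± 0.16, limma adjusted p = 7.87e-06). Both calls held in all alternatives run, with adjusted p up to 0.00056 for each. The genes lie at chr11:46055992-46147343 and chr7:133883199-134232146 (GRCm38).

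Adam19 is also the member whose start site holds a match to AP-1, the growth factor responsive pair of Fos and Jun proteins. The letters TGANTCA, which read the same on both strands, were searched in the 250 bases before each start. They occurred at 1 of the 36 member start sites (2.78%), the Adam19 start nearest to where the annotated gene begins, and at 2217 of 32851 start sites in the whole table (6.75%). The line gives chr11:46055734-46055933 on the plus strand of GRCm38.p6, with the match in capitals. The first base of the match lies 131 bases before the start.
Adam19: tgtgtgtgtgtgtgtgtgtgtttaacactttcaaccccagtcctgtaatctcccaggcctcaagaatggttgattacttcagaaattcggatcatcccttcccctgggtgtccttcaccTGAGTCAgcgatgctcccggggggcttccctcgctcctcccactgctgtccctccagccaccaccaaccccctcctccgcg
A match in this window is a description of its letters, and binding at it was not measured.

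The other sheddases differed less. Adam15, which acts in cell adhesion and shedding, had 1497, 1676 and 2476 normalized counts in PDGFA and 3487, 4554 and 4486 in EF, with all PDGFA libraries lower. It fell by 1.17 on the log2 scale (SE 0.22, limma adjusted p = 0.00452), and missed the test without both libraries of mouse 68 (adjusted p = 0.0682, with a range of 3.87e-05 to 0.0682 over the alternatives). Adam10, the main sheddase of Notch and of the amyloid precursor protein, had 4495, 4984 and 4544 in PDGFA and 5957, 7780 and 9260 in EF, without overlap. Adam10 fell by 0.69 on the log2 scale (SE 0.18, limma adjusted p = 0.0194). The call was lost without the PDGFA libraries of mouse 62, 68 or 69 (adjusted p = 0.0722, 0.058 and 0.0695) or the EF library of mouse 68 (0.0514), and its range over the alternatives was 0.00196 to 0.129.

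Adam17, the TNF-converting enzyme, had 2521, 2749 and 2897 normalized counts in PDGFA and 3512, 3422 and 3581 in EF. The groups did not overlap, but the difference was small, at a log2 fold change of -0.37 ± 0.12 (limma adjusted p = 0.0448). With the mouse as a block it was not called (adjusted p = 0.125). Nor was it called when any library but EF mouse 62 was left out, with adjusted p of 0.182, 0.158 and 0.0821 without the PDGFA libraries of mouse 62, 68 and 69 and 0.0721 and 0.0608 without the EF libraries of mouse 68 and 69, and the range over the alternatives was 0.0166 to 0.451. Adam9 had 4415 to 5361 in PDGFA and 5215 to 6868 in EF, with an overlap of the groups and a log2 fold change of -0.37 (limma adjusted p = 0.0972). Without the EF library of mouse 69 it passed (-0.49, adjusted p = 0.033, range 0.033 to 0.653). Adam8 had 127.0 to 199.5 in PDGFA and 182.8 to 351.5 in EF and was not called (log2 fold change -0.59, limma adjusted p = 0.204).

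The sheddase family therefore had another make-up per kb of exon in each medium. Adam12 and Adam19 took 1.47% to 1.81% and 1.47% to 1.8% of the family's normalized counts per kb in PDGFA, and 14.1% to 20.8% and 23.2% to 35.6% in EF. Adam9 and Adam10 took 36.6% to 44.2% and 31.0% to 35.1% in PDGFA, and 14.4% to 22.5% and 16.4% to 21.5% in EF.

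Adam11, Adam22 and Adam23, the ADAMs known as surface receptors of the secreted LGI proteins, all rose, where 21.8% of all genes tested rose. These 3 ADAMs lack an active protease. Adam23 had 1445, 1777 and 2037 normalized counts in PDGFA and 103.4, 287.1 and 140.6 in EF. Adam11 had 1563, 1661 and 1618 in PDGFA and 398.4, 501.0 and 236.5 in EF. Adam22 had 3409, 3559 and 3182 in PDGFA and 1311, 1881 and 654.6 in EF. In each of these genes the 3 PDGFA libraries lay above the 3 EF libraries, and the EF library of mouse 68 was the highest in EF. Adam23 averaged 1753 ± 297.1 in PDGFA and 177.1 ± 97.1 in EF (SD, n = 3 each), 10.7-fold higher in PDGFA (log2 fold change 3.42 ± 0.36, limma adjusted p = 0.000363). Adam11 averaged 1614 ± 49.6 in PDGFA and 378.6 ± 133.4 in EF, a log2 fold change of 2.16 ± 0.27 (limma adjusted p = 0.000751). Adam22 rose by 1.53 ± 0.35 on the log2 scale (limma adjusted p = 0.0113). All 3 were called in every alternative run.

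LGI ligands of these receptors changed too. Lgi3 had 5973, 6075 and 6764 normalized counts in PDGFA and 301.7, 277.0 and 129.1 in EF (log2 fold change 4.82, limma adjusted p = 4e-05). Lgi4, the ligand through which ADAM22 acts in peripheral nerve myelination, had 1303, 1528 and 2263 in PDGFA and 0, 1.13 and 1.28 in EF. Lgi4 was thus near 0 in all EF libraries: it rested on 5661 recovered reads in PDGFA and 2 in EF, a ratio of 2299 between the groups' reads per unit of summed size factor, with a 95% counting interval of 636.2 to 18992. Lgi2 went the other way, with 77.2, 74.5 and 65.4 in PDGFA and 180.0, 579.8 and 565.1 in EF (log2 fold change -2.42, limma adjusted p = 0.00516). Its call was lost without both libraries of mouse 68 (adjusted p = 0.0603, with a range of 6.21e-08 to 0.0603 over the alternatives).

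**Figure D3:**
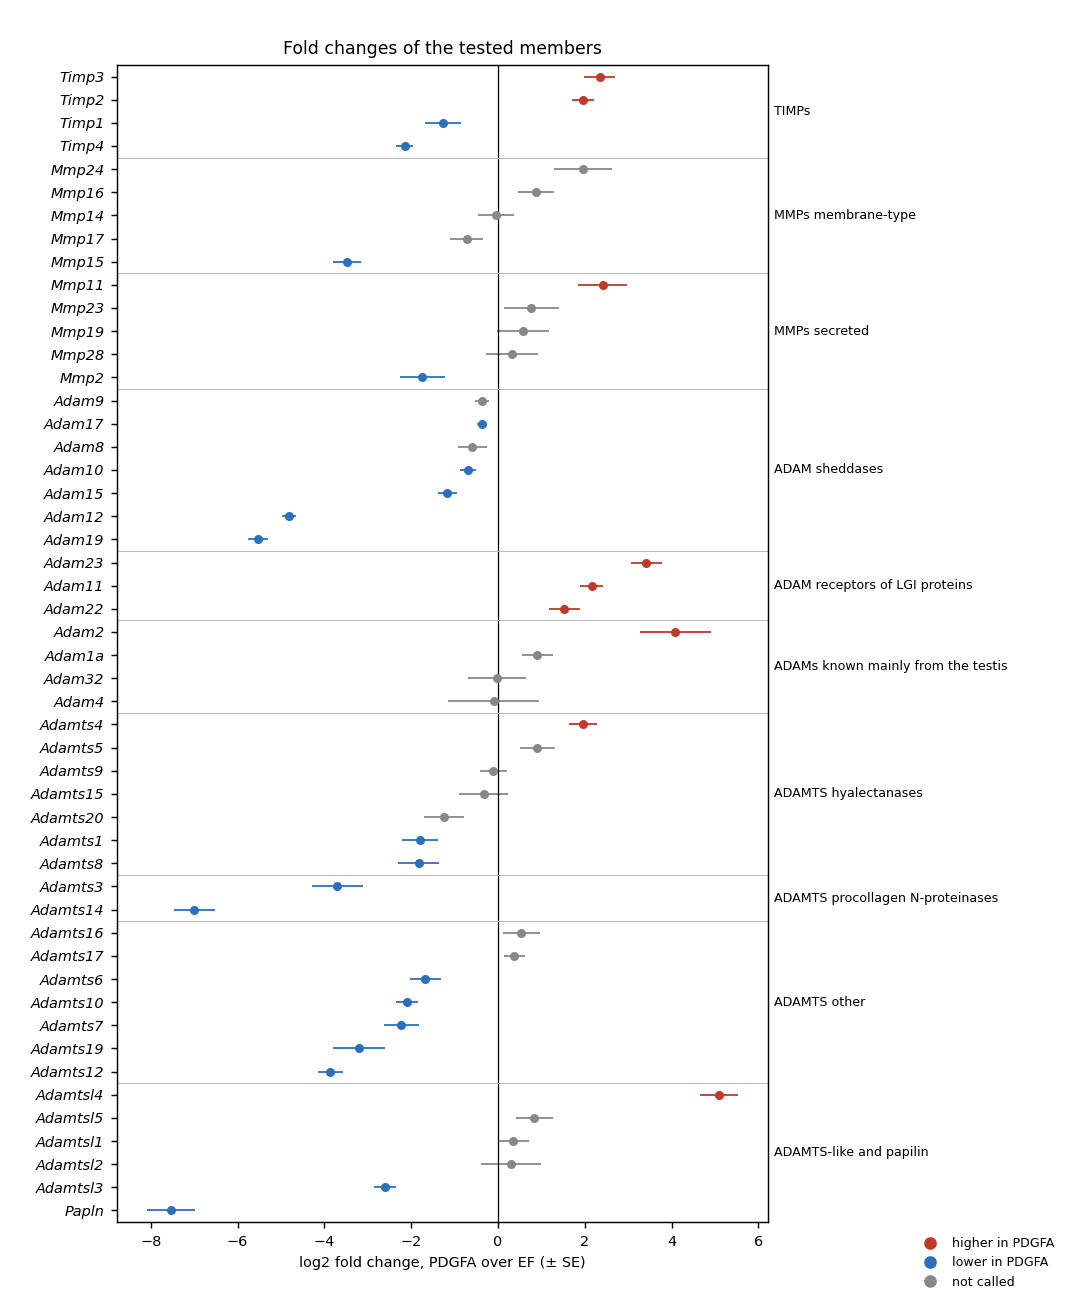
Log2 fold change of PDGFA over EF for the 50 tested members (points) with its standard error (lines), by role, with called members in red (higher) or blue (lower) and members that were not called in grey. The LGI receptors Adam11, Adam22 and Adam23 lie between 1.53 and 3.42, and the ADAM sheddases between -5.53 and -0.37.

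Of the 7 ADAMs known mainly from the testis, 4 reached the count minimum and 1 was called. Of all genes tested 39.8% were called in either direction. Adam2, or fertilin beta, a sperm protein, had 9.34, 12.4 and 75.3 normalized counts in PDGFA and 0, 1.13 and 0 in EF. Every PDGFA library was above EF, and that of mouse 69 held most of the counts. Adam2 had 108 recovered reads in PDGFA and 1 in EF, a ratio of 87.7 between the groups' reads per unit of summed size factor, with a 95% counting interval of 15.4 to 3497. The fitted log2 fold change of 4.09 (SE 0.82, limma adjusted p = 0.00656) depends on the pseudocount, and it was 3.19 without the PDGFA library of mouse 69. Adam1a was not called (log2 fold change 0.91, limma adjusted p = 0.073) and passed without the EF library of mouse 62 (1.24, adjusted p = 0.0106, range 0.0106 to 0.518). It shares 24.0% of its exon bases with Mapkapk5. Adam4 and Adam32 were not called, at log2 fold changes of -0.10 and -0.03 (limma adjusted p = 0.945 and 0.976). Adam5 had 0.849, 1.91 and 0 in PDGFA and 16.3, 14.6 and 3.84 in EF, and Adam21 and Adam30 were also under the count minimum.

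Of the 7 ADAMTS enzymes that cut hyaluronan-binding proteoglycans, the hyalectanases, 1 rose and 2 fell. Over all genes tested 21.8% rose and 18.0% fell. The number of hyalectanases that fell was 0 without the PDGFA library of mouse 69, and 0 without both libraries of mouse 68. Adamts4, or aggrecanase-1, which cleaves aggrecan and brevican, had 8009.5, 9988 and 10392 normalized counts in PDGFA and 1420.2, 2701 and 3658 in EF. Adamts1, which cleaves versican and aggrecan, had 770.6, 599.7 and 585.9 in PDGFA and 1078, 2829 and 3711 in EF. The groups of both genes were apart, in opposite directions. Adamts4 averaged 9463 ± 1275 in PDGFA and 2593 ± 1123 in EF (SD, n = 3 each), a log2 fold change of 1.96 ± 0.33 (limma adjusted p = 0.00282), and was called in every alternative run. Adamts1 averaged 652.1 ± 102.9 in PDGFA and 2539.6 ± 1340.2 in EF, a log2 fold change of -1.79 ± 0.42 (limma adjusted p = 0.0131). Without the PDGFA library of mouse 69 the Adamts1 call was lost (adjusted p = 0.0511), as it was without both libraries of mouse 68 (0.112), and the range over the alternatives was 1.58e-05 to 0.112.

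Adamts8, a weaker aggrecanase, also fell, with 28.9, 22.9 and 14.3 normalized counts in PDGFA and 45.0, 81.1 and 129.1 in EF (log2 fold change -1.83, limma adjusted p = 0.0199). It missed the test without the PDGFA library of mouse 68 (adjusted p = 0.0612) or mouse 69 (0.0732) or the EF library of mouse 68 (0.0552), with a range of 0.00109 to 0.138 over the alternatives. Adamts9, a versican-cutting enzyme, had 4702, 4250.1 and 3372 in PDGFA and 3070.2, 3847 and 7221 in EF. Its groups overlapped, and its log2 fold change was -0.11 with a 95% interval of -0.84 to 0.61 (limma adjusted p = 0.796). The sign turned without the PDGFA library of mouse 69 (0.02) or the EF library of mouse 69 (0.24). Adamts5, or aggrecanase-2, lies 53059 bases from Adamts1 on chromosome 16 and had 567.0, 609.2 and 255.3 in PDGFA and 161.8, 335.5 and 241.6 in EF. It was not called (log2 fold change 0.91, limma adjusted p = 0.111), and passed without the PDGFA library of mouse 69 (1.31, adjusted p = 0.0339, range 0.0339 to 0.316). Adamts20, known from pigment cell migration in the skin, had 23.3 to 24.8 in PDGFA and 29.7 to 90.8 in EF and missed the test with limma (log2 fold change -1.24, adjusted p = 0.0671). It passed without the EF library of mouse 62 (-1.71, adjusted p = 0.00494), with edgeR (0.0438) and with DESeq2 (0.018), within a range of 0.00494 to 0.381. Adamts15 was not called (log2 fold change -0.33, limma adjusted p = 0.662).

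Per kb of exon, Adamts4 made up 76.1%, 81.8% and 85.5% of the hyalectanase counts in PDGFA and 40.3%, 39.8% and 37.9% in EF. Adamts1 made up 6.65%, 4.45% and 4.38% in PDGFA and 27.8%, 37.8% and 34.9% in EF. Adamts4 was the member with the highest normalized count per kb in PDGFA, at 1967, and the 9th in EF, at 539.1.

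Of the 3 enzymes that trim the amino end of procollagens, the 2 that could be tested fell, where 18.0% of all genes tested fell. Adamts14 had 14.4, 10.5 and 5.38 normalized counts in PDGFA and 1038, 951.4 and 2375 in EF, so that it was near the count minimum in every PDGFA library. It averaged 10.1 ± 4.54 in PDGFA and 1455 ± 798.3 in EF (SD, n = 3 each), 128-fold lower in PDGFA by the fitted value (log2 fold change -7.00 ± 0.47, limma adjusted p = 4.83e-05). Adamts3, which in the mouse brain also cleaves reelin, had 55.2, 72.6 and 16.1 in PDGFA and 341.9, 794.9 and 568.9 in EF. All PDGFA libraries of Adamts3 were below EF, at a log2 fold change of -3.70 ± 0.58 (limma adjusted p = 0.00218), or -3.06 without the PDGFA library of mouse 69. Adamts2 was under the count minimum, with 14.4, 2.86 and 1.79 in PDGFA and 12.4, 9.01 and 2.56 in EF.

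Among the remaining ADAMTS enzymes 5 of 7 fell and none rose, where 18.0% of all genes tested fell and 21.8% rose. Adamts12, which like Adamts7 cleaves cartilage oligomeric matrix protein, had 90.8, 93.6 and 160.4 normalized counts in PDGFA and 1780.3, 1211 and 1994 in EF. The 3 PDGFA libraries were all below EF, at 114.9 ± 39.4 in PDGFA and 1662 ± 404.6 in EF (SD, n = 3 each), a log2 fold change of -3.86 ± 0.29 (limma adjusted p = 8.06e-05). Adamts10, which acts with fibrillin microfibrils, had 549.2 to 827.5 in PDGFA and 2100.1 to 3890.2 in EF (log2 fold change -2.09, limma adjusted p = 0.000677). Adamts7 had 435.4 to 757.9 in PDGFA and 1591 to 4818 in EF (-2.23, adjusted p = 0.00406). Adamts6, a close relative of Adamts10, had 691.7, 682.7 and 660.3 in PDGFA and 4097, 1558 and 1571 in EF (-1.67, adjusted p = 0.00891), and the EF library of mouse 62 stood far above the other EF libraries. Adamts19 was low, with 3.39, 4.77 and 5.38 in PDGFA and 22.0, 48.4 and 108.7 in EF (-3.20, adjusted p = 0.00492), and its call was lost without both libraries of mouse 68 (0.0567, with a range of 8.33e-06 to 0.0567 over the alternatives). Adamts16 and Adamts17 were not called, at log2 fold changes of 0.54 and 0.38 (limma adjusted p = 0.341 and 0.235).

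The ADAMTS-like proteins and papilin share the ancillary domains of the ADAMTS enzymes and have no protease. The member with the largest fall of all was Papln, whose protein is a matrix glycoprotein and, in Drosophila, an inhibitor of an ADAMTS enzyme. It had 22.9, 18.1 and 18.8 normalized counts in PDGFA and 1468, 6643 and 6035 in EF. The PDGFA libraries were close to one another, and among the EF libraries mouse 62 was the low one. Papln averaged 20.0 ± 2.58 in PDGFA and 4715 ± 2829 in EF (SD, n = 3 each), with a log2 fold change of -7.54 ± 0.55 (limma adjusted p = 6.53e-05), or -8.25 without the EF library of mouse 62. Per kb of exon Papln was the 7th highest of the 56 members in EF and the 44th in PDGFA. It lies at chr12:83763634-83792382 (GRCm38).

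Adamtsl4, whose protein binds fibrillin in the fibres that hold the lens, rose instead. It had 202.8, 293.1 and 224.0 normalized counts in PDGFA and 4.79, 11.3 and 3.84 in EF, and every PDGFA library was far above EF. It averaged 240.0 ± 47.2 in PDGFA and 6.63 ± 4.04 in EF (SD, n = 3 each), 34.0-fold higher in PDGFA by the fitted value (log2 fold change 5.09 ± 0.44, limma adjusted p = 0.000135). Since the EF counts were so low, this value depends on the pseudocount, and with 5 in place of 1 it was 4.43. Adamtsl3, or punctin-2, had 118.8, 128.9 and 89.6 in PDGFA and 569.8, 866.9 and 627.7 in EF, without overlap (log2 fold change -2.60 ± 0.25, limma adjusted p = 0.000233). Adamtsl1, Adamtsl5 and Adamtsl2 were not called, at log2 fold changes of 0.35, 0.84 and 0.30 (limma adjusted p = 0.468, 0.156 and 0.753), and the value of Adamtsl2 was -0.02 with edgeR, -0.04 with DESeq2 and -0.40 without the EF library of mouse 62.

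Levels of different members can be set side by side per kb of exon. In PDGFA the highest mean normalized counts per kb were 1967 for Adamts4, 1886 for Timp2, 1245 for Timp3, 1158 for Adam9 and 951.5 for Adam10. In EF they were 9080.2 for Mmp15, 2264 for Adam19, 1560.2 for Adam10, 1505 for Adam9 and 1317 for Adam12. An ADAMTS enzyme and a pair of TIMPs thus headed the order in PDGFA, and a membrane-type MMP and the meltrin Adam19 headed it in EF. Mmp14 was the 6th in both media. Adam19 and Adam12 were the 24th and 25th in PDGFA, at 47.4 and 46.3 normalized counts per kb.

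Genes that act on the members, or that they act on, were counted from lists of their known partners. Of 20 activators and other inhibitors tested, 6 rose and 6 fell, where 21.8% of all genes tested rose and 18.0% fell. Tspan17 and Tspan15, tetraspanins that carry ADAM10 to the cell surface and direct its choice of substrate, rose, while others of that group did not all do so. Tspan17 had 909.8, 855.6 and 1063 normalized counts in PDGFA and 13.4, 46.2 and 48.6 in EF (log2 fold change 4.86, limma adjusted p = 0.000251). Tspan15 had 3243, 3650.4 and 3816 in PDGFA and 165.7, 486.4 and 444.9 in EF (3.43, adjusted p = 0.000479), so both were apart in all libraries, while Adam10 itself was at 4495 to 4984 in PDGFA and 5957 to 9259.6 in EF. Of the other such tetraspanins in the table, named after their values were seen, Tspan14 rose, with 3283, 3252 and 3105 in PDGFA and 1202, 1831 and 1889.5 in EF (limma adjusted p = 0.00545). Tspan5 fell, with 3191, 3581 and 2824 in PDGFA and 8413, 7032 and 5271 in EF (-1.09, limma adjusted p = 0.00407), and Tspan33 was not called (-0.27, limma adjusted p = 0.532). Pcsk6, a proprotein convertase of the furin family, also rose (2.51, limma adjusted p = 0.0015). Plat, the tissue plasminogen activator, and Serpine2, an inhibitor of plasminogen activators and thrombin, fell by 1.47 and 1.52 on the log2 scale (limma adjusted p = 0.000485 and 0.000526). Rhbdf1, or iRhom1, which carries ADAM17 to the cell surface, had 947.9 to 1451 in PDGFA and 3154 to 3698 in EF and fell by 1.56 (limma adjusted p = 0.000542).

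Among 15 tested components of the brain matrix that these enzymes can cut or that bind their substrates, 5 rose and 4 fell, against the same shares of all genes. The tenascins took opposite directions. Tnr, the tenascin of oligodendrocytes and perineuronal nets, had 139441, 128885 and 105258 normalized counts in PDGFA and 340.9, 6762 and 539.5 in EF, and all PDGFA libraries were above EF. Its log2 fold change was 6.84 ± 0.99 (limma adjusted p = 0.00152), or 8.17 without the EF library of mouse 68 and 6.02 without that of mouse 62. Tnc, the tenascin of progenitor niches, had 12473, 11156 and 6052 in PDGFA and 108099, 85207 and 88444 in EF (-3.31, limma adjusted p = 0.000154). Of the lecticans, the proteoglycans cut by the hyalectanases, 1 fell, 1 rose and 2 were not called. Ncan had 28341 to 31035 in PDGFA and 57483 to 155330.0 in EF (-1.55, limma adjusted p = 0.0129), and its call was lost with the mouse as a block and both libraries of mouse 68 left out (-1.17, adjusted p = 0.056, range 3.2e-05 to 0.056). Bcan, the substrate most often tied to ADAMTS4, had 65321 to 73814 in PDGFA and 18879.7 to 36508 in EF (1.24, adjusted p = 0.0126) and was named after its values were seen. Vcan and Acan were not called, at 0.49 and -0.22 (limma adjusted p = 0.397 and 0.837). Of the link proteins that bind lecticans to hyaluronan, Hapln4 fell by 4.18 on the log2 scale (limma adjusted p = 4.66e-05). Hapln2, the link protein of myelinated fibres, rose at a low level, with 17.0, 25.8 and 36.7 in PDGFA and 5.75, 1.13 and 1.28 in EF (3.04, adjusted p = 0.00575), and lost its call without both libraries of mouse 68 (0.078, range 0.00147 to 0.078), as did Bcan (0.0613, range 0.000305 to 0.0613). Sparcl1, or hevin, a matrix protein that ADAMTS4 can cut, rose by 1.41 (limma adjusted p = 0.00257). Reln, the matrix protein reelin that ADAMTS3 cleaves, was also named after its values were seen and had 913.2, 748.6 and 1539 in PDGFA and 66.1, 417.7 and 40.9 in EF. Its groups did not overlap (3.27 ± 0.79, limma adjusted p = 0.0145). Without the EF library of mouse 68 its log2 fold change was 4.26 and without that of mouse 69 it was 2.60, and the call was lost without the PDGFA library of mouse 69 (adjusted p = 0.06, range 4.46e-11 to 0.06).

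Of 19 membrane proteins known to be shed by ADAMs, 6 rose and 5 fell, where 21.8% of all genes tested rose and 18.0% fell. Epha4, an ephrin receptor, had 3395, 3409.8 and 2328 normalized counts in PDGFA and 261.4, 331.0 and 79.3 in EF (log2 fold change 3.97, limma adjusted p = 0.000771), or 3.34 without the EF library of mouse 69. App, the amyloid precursor protein, and Prnp, the prion protein, rose by 1.08 and 1.50 (limma adjusted p = 0.00269 and 0.000293). Jag1, a Notch ligand, had 401.5, 378.1 and 274.2 in PDGFA and 4511, 2164 and 4152 in EF (-3.31, adjusted p = 0.000178). Cx3cl1, a membrane-bound chemokine, and Hbegf, a ligand of the EGF receptor, fell by 2.50 and 1.66 on the log2 scale (limma adjusted p = 0.00013 and 0.00141). Tgfa, another EGF receptor ligand, named after its values were seen, rose, with 5616, 4949 and 3457 in PDGFA and 289.2, 1360.1 and 254.4 in EF (3.30, limma adjusted p = 0.00425, or 4.07 without the EF library of mouse 68).

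**Figure D4:**
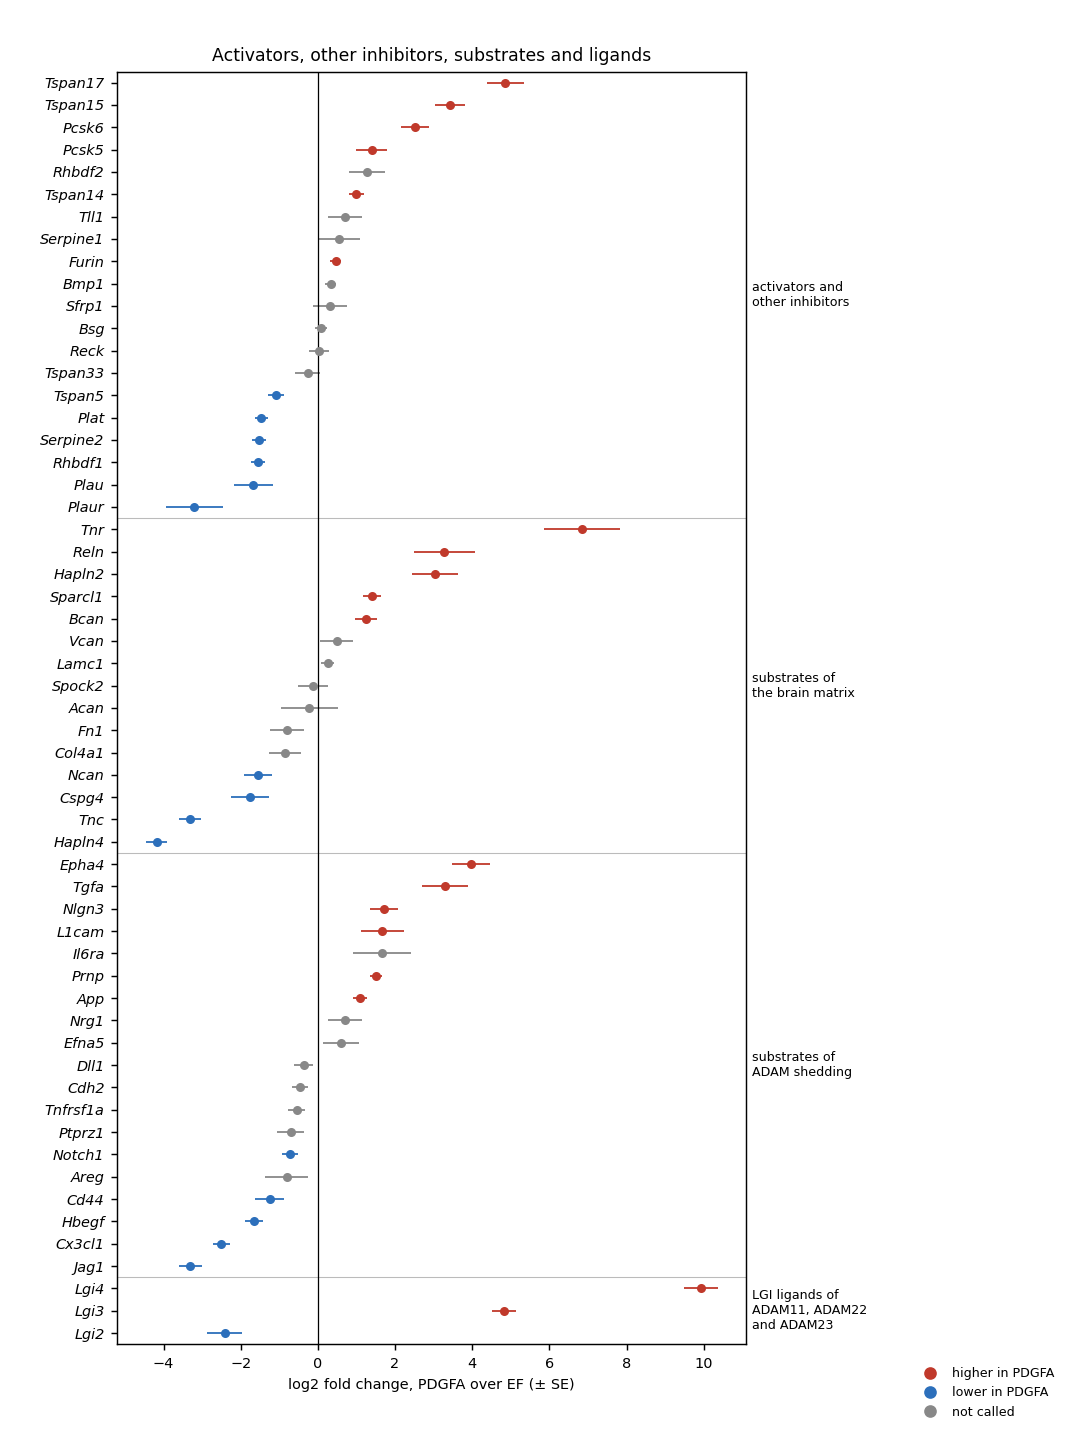
Log2 fold change of PDGFA over EF (points) with its standard error (lines) for the tested genes of 4 partner lists, with called genes in red (higher) or blue (lower) and the others in grey. Tnr lies at 6.84 and Hapln4 at -4.18 among the matrix genes, and Lgi4 and Lgi3 lie at 9.93 and 4.82 among the LGI ligands; the Lgi4 value depends on the pseudocount, since Lgi4 had 2 reads in EF.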

How the data were processed

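RNA of 6 libraries was measured as polyadenylated RNA, and FastQC, STAR, DESeq2 and build mm10 (GRCm38) are named in the submitters' processing notes. The deposited values are a signal per gene, counts that the authors divided by a size factor per library. Dividing by the smallest step of each library gave whole reads for 100% of values (tolerance 0.001), with size factors between 0.782 and 1.18. No gene in the table had fewer than 10 reads in all, so genes below that were not analysed here.

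From the deposited values, log2(normalized count + 1) was tested in limma 3.58.1 (R 4.3.3), PDGFA over EF, for genes with a mean of at least 10, with Benjamini-Hochberg adjustment over all 17068 genes at 0.05. Fold changes on this scale understate changes of low genes. Alternatives were edgeR 4.0.16 and DESeq2 1.42.0 on recovered reads, TMM factors, pseudocounts of 0.5 and 5, no filter, a mean of at least 50, a block for the mouse, and leaving out libraries. The scripts were tested on simulated data. Same-numbered libraries come from the same mouse; their deviations from the group means correlated at -0.0906, 0.11 and -0.11 for mouse 62, 68 and 69. Libraries of 1 group differed by more than sampling noise. Whether reads were counted by strand is not given in the sources used here. Counting intervals are exact (Clopper-Pearson, 95%) and cover counting error only. Gene positions and exon lengths are from GENCODE on GRCm38, promoters from RefSeq on GRCm38.p6.

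Members and lists were chosen with earlier results of these data known. Full values are given for the member with the smallest p in each direction in each role group, all TIMPs, and, among called members whose higher group averaged 50 or more, the 5 that rose and the 5 that fell furthest; other members are named with fold changes or values, and up to 3 genes per direction from each partner list by smallest p, plus a few partner genes marked as named after their values were seen.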

Additional observations from a re-analysis of the deposited data

How the results depend on the processing

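The number of members that rose in PDGFA stayed between 8 and 11 over all alternatives, against 9 in the test as reported, and the number that fell was 14 to 22 when 1 library was left out, against 20. It was 12 without both libraries of mouse 68. Over all genes 3720 rose and 3076 fell; leaving out 1 library gave 2306 to 4213 and 1855 to 3848, with the lowest counts without the PDGFA library of mouse 68. Without both libraries of mouse 68 the counts were 1945 and 1335, or 2395 and 1879 with the mouse as a block, where fewer samples entered the fit. With the mouse as a replicate block on all libraries, 10 members rose and 18 fell, and 3213 and 2626 of all genes. Among 788 values of single members over 16 alternatives, 715 kept their direction and their side of the threshold, 40 lost the call, 18 gained one and 15 changed sign, and 20 members were called in every alternative in which they could be tested. The sign changes were all in members that were not called. Log2 fold changes with 1 library left out ran between -0.40 and 0.94 for Adamtsl2, -0.37 and 0.24 for Adamts9, -0.52 and 0.66 for Adam32, -0.40 and 0.43 for Mmp14, -0.76 and 0.11 for Adamts15, -0.35 and 0.84 for Mmp28, and -1.29 and 0.99 for Adam4, which was 0.05 without both libraries of mouse 68, with or without the block. Adamtsl2 was -0.02 with edgeR and -0.04 with DESeq2. The cause of these shifts was not tested. The calls lost most often were those of Adam17, Timp1, Adam10, Mmp2 and Adamts8. Depth limits the size of the Adam2 change, which rests on 1 read in EF.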
